A study of Homo sapiens with 72 samples.

Results

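The members are the 123 protein-coding genes of 20033 in GENCODE 44 (hg38) whose symbols mark them as TBX, LHX, NKX, IRX, DLX, SOX or FOX genes or as sine oculis homeobox genes, chosen by symbol and not by any measured value. They fall into 51 FOX, 19 SOX, 14 NKX, 13 TBX, 8 LHX, 6 DLX and 6 IRX genes and the 6 genes of the sine oculis family. Antisense genes were left out, and FOXL2NB and TBXA2R, whose symbols match the letters but which are not members of these families, were set aside. The chromatin at their starts was profiled by Cut&Tag, in which an antibody brings a transposase to a histone mark, which cuts and tags nearby DNA for sequencing. H3K4me2, H3K4me3 and H3K27me3 were measured in Raji, an Epstein-Barr virus positive Burkitt lymphoma line, and in NALM6 and REH, which are lines of B cell precursor acute lymphoblastic leukemia. Each line was left untreated or treated with 1 nM bryostatin, an activator of protein kinase C, overnight by the labels and for a full day by the study's methods, and each group has 3 replicates, which makes 54 libraries. Every group of a line is that same established line, and the labels do not say whether replicates were separate cultures, so p-values measure only the spread between these samples, which may be technical.

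The families are transcription factors that set cell identity during development. They are the T-box (TBX), LIM homeobox (LHX), NK homeobox (NKX), Iroquois (IRX), distal-less (DLX), sine oculis, SRY-related (SOX) and forkhead (FOX) families. Many of their genes are switched on in particular embryonic tissues and are silent in most others, while some are widely expressed. In cells that do not use them, their CpG-rich starts are often held by Polycomb, which writes H3K27me3 over broad stretches, whereas H3K4me3 sits at starts in use and H3K4me2 at starts and at poised or weakly used elements. A few members have roles in B cells as well. FOXO1 is needed for B lineage commitment and for expression of the recombination genes, FOXP1 for early B cell development, and SOX4 for the survival of B cell progenitors.

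A member was counted in a library when a peak overlapped the stretch within 1 kb of any of its annotated starts, and called in a group when at least 2 of its 3 libraries had one. Depth, read from the step between neighbouring coverage values in the 48 libraries given in RPKM in 10 bp bins, was 5.12 to 47.9 M mapped reads, with a median of 18.8 M. In the 6 libraries of NALM6 replicate 1 the signal has another scaling and peaks are short, so total signal was centred on each library's own median region before it was compared. These libraries enter the fits, and counts without them are given beside them. One library goes against its label. In untreated Raji H3K27me3 replicate 2, peaks lay at 91.9% of the genes that carried H3K4me3 in all 6 Raji libraries, against 0.374% to 13.4% of the same genes in the other 5 Raji H3K27me3 libraries. H3K27me3 peaks were few in Raji untreated replicate 1 (819 peaks) and bryostatin replicates 1 and 2 (3424 and 2778) and in NALM6 replicate 1 of either treatment (1444 and 590), so a missing peak there is not read as a missing mark. Markers were those of B cells. Of 7 B lineage markers, 7 were called for H3K4me3 in untreated Raji and NALM6 and 6 in REH, and no H3K4me3 peak lay at any of 5 T lineage or 5 epithelial markers in any library. Of 5 myeloid markers none was called for H3K4me3 in an untreated line, while H3K4me2 peaks lay in 6 of 6 REH libraries at CSF1R and CEBPE, in 4 at MPO and in 0 at CD14 and ELANE.

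Peaks of the activating marks were less common at the members than at genes in general, and peaks of H3K27me3 were more common. H3K4me3 was called at 23 of 123 members in untreated Raji, at 25 in NALM6 and at 31 in REH, which is 18.7%, 20.3% and 25.2% of them, against a background of 52.9%, 51.4% and 49.4% of all protein-coding genes. H3K4me2 was called at 26, 26 and 45 members in the same order, against 53.2%, 42.5% and 56.6% of all genes. The members' share was below that of all genes in each of the 36 H3K4me2 and H3K4me3 libraries. H3K27me3 was called at 23 members in Raji, 20 in NALM6 and 29 in REH, or 18.7%, 16.3% and 23.6%, against 16.1%, 9.64% and 13.2% of all genes. The members' share of H3K27me3 was above that of all genes in all 6 NALM6 and all 6 REH libraries and in 5 of 6 Raji libraries, the exception being the library that goes against its label.

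**Figure D1:**
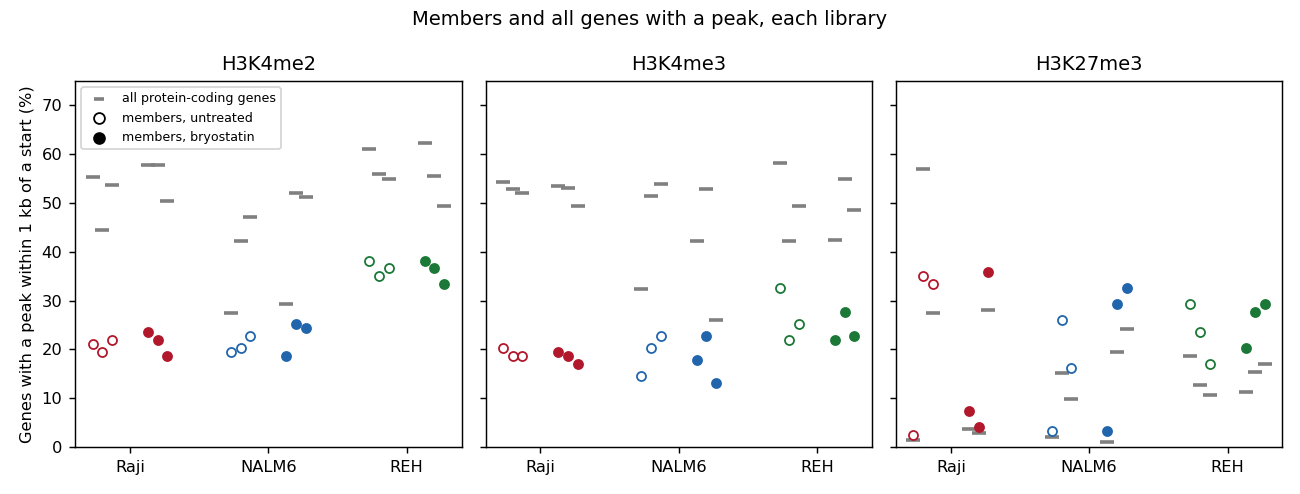
Percent of the 123 members (circles, open for untreated and filled for bryostatin) and of all 20033 protein-coding genes (grey bars) with a peak within 1 kb of a start, 1 symbol per library, by mark and line. For H3K4me2 and H3K4me3 each circle lies under the grey bar of its library, and for H3K27me3 it lies above in all libraries except untreated Raji replicate 2, where all genes reach 57.0%.

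REH stood apart from the other lines for H3K4me2. The 3 untreated REH libraries had peaks at 47, 43 and 45 members, the 3 Raji libraries at 26, 24 and 27, and the 3 NALM6 libraries at 24, 25 and 28. With bryostatin the counts were 47, 45 and 41 in REH, 29, 27 and 23 in Raji and 23, 31 and 30 in NALM6, so that the lowest REH library lay above the highest of the other lines. Over all genes the lines overlapped, with 49.3% to 62.4% of genes in REH libraries, 44.5% to 57.8% in Raji and 27.5% to 52.0% in NALM6. For H3K4me3 the members' counts overlapped between REH and NALM6, with 40, 27 and 31 members in untreated REH against 25, 23 and 23 in Raji and 18, 25 and 28 in NALM6.

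Around the starts the marks differed in shape. In untreated replicate 3 of each line, H3K4me2 and H3K4me3 peaks over members were centred on the 5′ end, where H3K4me3 covered 17.9% of members in Raji, 21.1% in NALM6 and 24.4% in REH, and fell to 0% to 1.63% at 5 kb downstream. H3K27me3 was spread more widely, though less evenly in REH. It covered 24.4% of Raji members at the 5′ end and 26.02% at 5 kb downstream, 11.4% and 10.6% in NALM6, and 14.6% and 9.76% in REH. At 5 kb upstream it covered 22.8%, 8.94% and 5.69% of members in Raji, NALM6 and REH. Over all genes H3K27me3 at the 5′ end was 17.1%, 6.33% and 6.998% in the same order. The longest H3K27me3 peak at a member had a median of 3740 to 7880 bp in the REH libraries, against 2850 to 5790 bp at other genes, and was the longer of these medians in 6 of 6 of them and in 5 of 6 in Raji and in NALM6. This was not particular to H3K27me3, since for H3K4me2 and H3K4me3 the peaks at members were the longer in 6 of 6 libraries of each line.

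**Figure D2:**
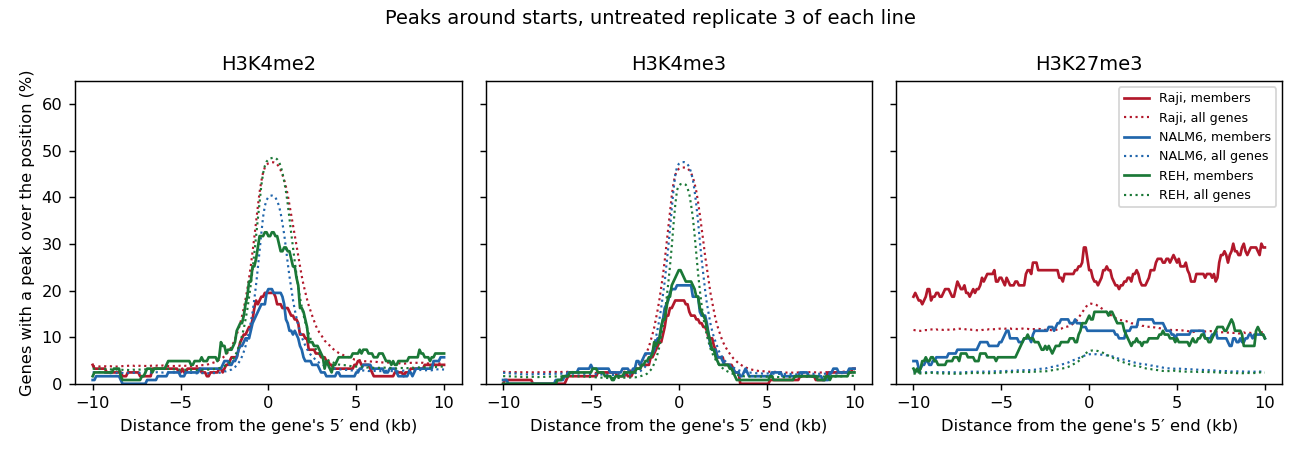
Percent of genes with a peak over each position, by distance in kb from the gene's 5′ end (negative upstream), for the 123 members (solid) and all protein-coding genes (dotted) in untreated replicate 3 of each line. H3K4me2 and H3K4me3 form a narrow hump that is lower for members at the 5′ end, while H3K27me3 over members is broad and lies above the line for all genes over most positions.

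The lymphoid members carried H3K4me3 at their starts in all lines. Their promoters are shown beside those of members under H3K27me3 and of a member with no peak, from 250 bases before to 50 after a RefSeq start (GRCh38.p14), with each CG dinucleotide in capitals because CpG-rich starts are where these marks are usually found. Of the 123 members, 84 matched an entry there, and DLX3 and IRX3 did not.
FOXO1, chr13:40666592-40666891, minus strand: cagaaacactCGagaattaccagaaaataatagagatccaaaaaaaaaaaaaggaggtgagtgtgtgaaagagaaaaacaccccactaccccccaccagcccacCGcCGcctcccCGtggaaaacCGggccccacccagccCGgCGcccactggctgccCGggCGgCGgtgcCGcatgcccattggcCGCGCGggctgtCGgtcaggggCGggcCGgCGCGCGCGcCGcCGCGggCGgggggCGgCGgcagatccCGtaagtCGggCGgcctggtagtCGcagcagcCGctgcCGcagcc
FOXP1, chr3:71583679-71583978, minus strand: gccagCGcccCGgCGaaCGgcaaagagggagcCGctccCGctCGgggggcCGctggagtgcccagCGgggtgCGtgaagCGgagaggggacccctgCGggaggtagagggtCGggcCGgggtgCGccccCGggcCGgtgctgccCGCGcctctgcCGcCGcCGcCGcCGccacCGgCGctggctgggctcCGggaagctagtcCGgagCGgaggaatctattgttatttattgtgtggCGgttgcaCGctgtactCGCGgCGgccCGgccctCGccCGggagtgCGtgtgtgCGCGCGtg
SOX4, chr6:21593501-21593800, plus strand: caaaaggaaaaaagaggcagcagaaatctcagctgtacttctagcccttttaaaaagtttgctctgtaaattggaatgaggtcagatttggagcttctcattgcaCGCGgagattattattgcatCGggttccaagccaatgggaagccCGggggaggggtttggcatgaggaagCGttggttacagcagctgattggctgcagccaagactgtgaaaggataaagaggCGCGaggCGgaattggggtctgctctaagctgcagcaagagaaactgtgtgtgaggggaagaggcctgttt
LHX4, chr1:180230014-180230313, plus strand: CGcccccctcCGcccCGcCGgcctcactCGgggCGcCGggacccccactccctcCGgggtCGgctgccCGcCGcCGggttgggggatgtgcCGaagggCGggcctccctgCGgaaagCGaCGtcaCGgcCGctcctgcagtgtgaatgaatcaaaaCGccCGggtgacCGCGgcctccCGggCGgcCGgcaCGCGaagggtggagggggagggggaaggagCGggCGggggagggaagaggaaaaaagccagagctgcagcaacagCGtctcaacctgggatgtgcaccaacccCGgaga
FOXO6, chr1:41361184-41361483, plus strand: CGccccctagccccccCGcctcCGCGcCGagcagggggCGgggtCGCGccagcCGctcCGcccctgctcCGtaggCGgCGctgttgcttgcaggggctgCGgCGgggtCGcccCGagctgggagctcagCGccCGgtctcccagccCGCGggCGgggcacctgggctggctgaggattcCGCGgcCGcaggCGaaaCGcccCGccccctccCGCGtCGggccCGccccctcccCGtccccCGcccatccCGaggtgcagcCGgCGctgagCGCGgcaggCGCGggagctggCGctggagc
TBX21, chr17:47732986-47733285, plus strand: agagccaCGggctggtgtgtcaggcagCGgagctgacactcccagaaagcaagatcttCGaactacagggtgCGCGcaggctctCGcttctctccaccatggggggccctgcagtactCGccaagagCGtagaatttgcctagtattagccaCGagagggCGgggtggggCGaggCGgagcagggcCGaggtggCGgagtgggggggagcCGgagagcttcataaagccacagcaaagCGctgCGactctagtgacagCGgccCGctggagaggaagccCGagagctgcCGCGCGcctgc
FOXA1, chr14:37595200-37595499, minus strand: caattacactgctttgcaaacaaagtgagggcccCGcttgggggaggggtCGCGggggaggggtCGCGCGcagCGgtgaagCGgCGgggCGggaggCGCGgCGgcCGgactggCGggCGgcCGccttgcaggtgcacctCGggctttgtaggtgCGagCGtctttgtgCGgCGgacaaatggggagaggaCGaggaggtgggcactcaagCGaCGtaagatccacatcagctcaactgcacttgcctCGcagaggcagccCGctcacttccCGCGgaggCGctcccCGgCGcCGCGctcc

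FOXO1 has 33 CG dinucleotides in this window, FOXP1 41 and SOX4 8, while LHX4 has 32, FOXO6 42 and TBX21 23. FOXA1, a regulator of liver, breast and prostate genes with no peak in any of the 54 libraries, has 34. Over a window of the same size at every gene's GENCODE 5′ end, read from the hg38 genome, the median was 18 for all genes, 22 for the members, 33 for the 15 members with H3K4me3 in all 18 libraries, 20.5 for the 20 members with H3K27me3 in at least 9 of 18, and 20 for the 28 members with no peak. The RefSeq start used above can differ from the GENCODE 5′ end, at which FOXA1 has 16, FOXP1 21 and FOXO6 34. Over the windows shown, H3K27me3 peaks lay at FOXO6 in 1 of 6 Raji, 4 of 6 NALM6 and 6 of 6 REH libraries, and H3K4me2 peaks of NALM6 lay at SOX4 in 2 of 6 libraries and at FOXP1 in 3 of 6.

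FOXO1 (chr13:40555667-40666641, minus strand) had H3K4me2 and H3K4me3 peaks in all 18 libraries of each mark. Its H3K4me3 region, given as a multiple of the library's median region (set for each line's own regions), was 5.31, 4.57 and 4.88 in untreated Raji. In NALM6 it was 4.95, 3.02 and 2.78, and 4.08, 4.02 and 4.75 in the REH libraries. The H3K4me3 peak covered 4410, 5140 and 4530 bp in untreated Raji. FOXO1 was thus at least 2.78 times the median region in each of these libraries. FOXP1 (chr3:70954693-71583978, minus strand), which has 67 annotated starts, also had both marks in all libraries, with H3K4me3 at 2.48, 2.21 and 2.24 in Raji. NALM6 libraries were at 1.67, 1.71 and 1.48, and those of REH at 2.21, 1.97 and 2.25. Its H3K4me2 was spread widely, over 18270, 14880 and 11200 bp in untreated REH.

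SOX4 (chr6:21593751-21598619, plus strand) differed between the lines. H3K4me3 was present in all 18 libraries, and over the regions shared by Raji and REH it was 0.69, 0.72 and 0.69 multiples of the median region in untreated Raji and 2.39, 2.29 and 2.59 in REH. Over those shared by Raji and NALM6 it was 0.62, 0.65 and 0.61 in Raji and 3.93, 2.72 and 2.32 in NALM6. The groups did not overlap in either comparison. In the limma fits, the log2 signal of Raji was lower than that of REH by 1.78 (log2 change -1.78, SE 0.08, adjusted p = 2.9e-07) and lower than that of NALM6 (log2 change -2.22, SE 0.21, adjusted p = 0.000603). H3K4me2 gave another picture. Peaks lay in 6 of 6 Raji and 6 of 6 REH libraries but in 0 of 3 untreated and 2 of 3 bryostatin NALM6 libraries, and between Raji and REH it did not pass the threshold (log2 change 0.12, SE 0.19, adjusted p = 0.622). H3K27me3 peaks at FOXO1, FOXP1 and SOX4 occurred in 1 of 18 libraries, the Raji library that goes against its label.

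**Figure D3:**
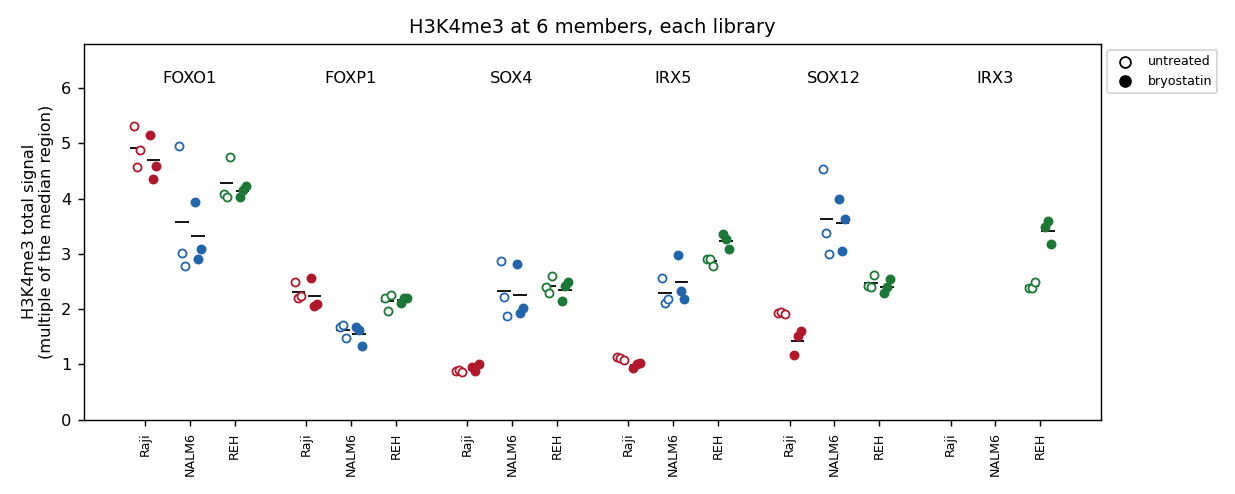
H3K4me3 total signal at 6 members in each library, as a multiple of the median region of that library (y axis, from 0; the median is taken over each line's own regions), untreated (open) and bryostatin (filled), with group means as bars, for Raji, NALM6 and REH. SOX4 and IRX5 sit near 1 in Raji and above 1.8 in NALM6 and REH, and IRX3, tested in REH alone, rises with bryostatin from 2.38 to 2.49 in untreated libraries to at least 3.18.

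Most of the widely expressed members also carried H3K4me3. Of the 13 genes of that list, 12 were called for H3K4me3 in untreated Raji, 12 in NALM6 and 11 in REH, and 0, 1 and 0 were called for H3K27me3. FOXJ2, FOXJ3, FOXK1, FOXK2, FOXM1, FOXN2, FOXN3, FOXO3, FOXP4 and SOX12 had H3K4me3 in all 18 libraries. FOXM1, which drives genes of mitosis, shares its window with the starts of RHNO1 and TULP3, so its peaks cannot be given to FOXM1 alone. FOXO4, a stress response factor, had H3K4me3 in 11 of 18 libraries, with 6 of 6 in Raji and 2 of 6 in REH. SIX5 had it in 14 of 18. The remaining exception was SOX13, a factor of cartilage and gamma delta T cells. It had no H3K4me2 or H3K4me3 peak in any library and H3K27me3 in 4 of 6 NALM6 libraries. Besides these 10 and the 3 lymphoid members, FOXD2 and IRX5 completed the 15 members with H3K4me3 in all 18 libraries, or 12.2% of members, where 21.8% of all genes had it.

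TBX21 and FOXP3, the master regulators of type 1 helper and regulatory T cells, had no H3K4me3 peak in any library. FOXP3 had no peak of any mark. TBX21 (chr17:47733236-47746122, plus strand) had H3K27me3 in 6 of 6 Raji, 3 of 6 NALM6 and 6 of 6 REH libraries, and H3K4me2 in 4 of 6 Raji and 6 of 6 REH libraries. Its H3K27me3 was wide in Raji, with 2870, 19420 and 25940 bp called in the untreated libraries, against 3760, 3690 and 2300 bp in REH. The region was 2.22, 1.51 and 1.50 multiples of the median region in Raji and 0.20, 0.24 and 0.25 in REH, with no overlap (log2 change 2.91, SE 0.26, adjusted p = 3.32e-05). That fit rests on 333 regions called in all 6 libraries, of which 65.5% were called. The change ranged from 1.32 to 3.58 over 14 alternatives, which include leaving out the Raji library that goes against its label, and passed the threshold in each.

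Outside these lists the H3K4me3 calls set the lines apart. SOX5, a factor of cartilage and nerve development, had H3K4me3 in 6 of 6 Raji libraries and in none of NALM6 or REH. In REH, FOXD1, IRX3, SIX4, SOX11 and TBX2 had H3K4me3 in 6 of 6 libraries and in none of the other 2 lines. SOX11, a nervous system factor known from mantle cell lymphoma, covered 7120, 3850 and 3320 bp in untreated REH, and FOXD1, a kidney stroma factor, 3330, 3120 and 2700 bp. IRX1, SOX7, SOX18 and LHX4 had H3K4me3 in 6 of 6 REH libraries and in 4 to 6 of 6 NALM6 libraries, and in none of Raji. The window of SOX18 holds the start of TCEA2. Those of FOXD1, IRX3, SOX7, SOX11 and TBX2 also hold starts of other genes, such as FOXD1-AS1, LINC01248 and TBX2-AS1. So do those of FOXP1, DLX2, IRX5 and SOX12 among members named elsewhere. Peaks there cannot be given to the member alone.

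Counted by the strictest rule, in 3 of 3 untreated libraries of a line and 0 of 3 of another, 9 members had H3K4me3 in REH and not in Raji, or 7.32% against a background of 2.59% of all genes, and 5 in REH and not in NALM6, or 4.07% against 1.58%. IRX1 and SOX7 had it in NALM6 and not in Raji, or 1.63% against 1.48%, and no member had it in NALM6 and not in REH, where 0.384% of all genes did. For H3K4me2, 18 members had it in REH and not in Raji, or 14.6% against 6.60%, and 15 in REH and not in NALM6, or 12.2% against 7.99%. Among these were LHX6, LHX9, NKX1-2 and TBX1, which carried H3K27me3 in 6 of 6 REH libraries as well, although LHX9 had no H3K4me2 peak at its 5′ end there, only at another start. No test was made of these shares, since 3 libraries against 3 cannot give an exact two-sided permutation p below 0.1.

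H3K27me3 was found most often at LIM and distal-less homeobox genes. The 10 members with it in the most libraries were LHX4 and FOXO6 in 16 of 18, DLX3 and TBX21 in 15, LHX2, DLX4 and DLX5 in 14, and TBX1, DLX2 and LHX9 in 13. Members with equal numbers were ordered by mean called length, and LHX6 and NKX1-2 also had it in 13. By family, in untreated Raji, NALM6 and REH, it was called at 6, 3 and 7 of 8 LHX genes, 4, 5 and 5 of 6 DLX genes and 4, 3 and 6 of 13 TBX genes. It was called at 4, 5 and 5 of 51 FOX genes, 1, 2 and 3 of 19 SOX genes, 2, 1 and 2 of 14 NKX genes and 1, 0 and 1 of 6 IRX genes, where 16.1%, 9.64% and 13.2% of all genes were called. DLX3, a factor of skin and placenta, had 20840, 21790 and 15280 bp called in untreated REH and 1515, 12780 and 13150 bp in NALM6. In Raji it had 0, 14950 and 15680 bp. All its REH values lay above those of NALM6 but not above those of Raji. DLX3 and DLX4 are neighbours, as are DLX1 and DLX2, and between NALM6 and REH 1 merged H3K27me3 region covered both DLX1 and DLX2, so such pairs are not separate observations.

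In Raji the H3K27me3 result rests on few libraries. Untreated replicates 1, 2 and 3 had peaks at 3, 43 and 41 members. Without replicate 2, 3 members were called in both remaining libraries, and replicate 3 alone had 41. FOXC1, a factor of eye and vessel development, had H3K27me3 in 6 of 6 REH libraries and in no Raji or NALM6 library.

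Few members carried both H3K4me3 and H3K27me3. In untreated REH they were DLX1, FOXA3, FOXO6, LHX4 and TBX2, which is 4.07% of members against a background of 2.2% of all genes. In NALM6 they were LHX4 and SOX7, or 1.63% against 2.16%. In Raji they were DLX2, FOXA3 and SOX5, or 2.44% against 5.52%, and the same 3 were found with replicate 3 alone. SOX5 had both marks in all 6 Raji libraries, and in REH H3K27me3 in 6 of 6 with no H3K4me2 or H3K4me3. Its untreated H3K27me3 peaks covered 3880, 6550 and 7270 bp, and its H3K4me3 peaks 2310, 3180 and 2740 bp. Peaks of the 2 marks overlapped in position at 5 of 5 members in REH, 2 of 2 in NALM6 and 3 of 3 in Raji. The Raji overlaps include peaks of the library that goes against its label, and no count without it is given. With H3K4me2 in place of H3K4me3, 12 members in REH and 6 each in NALM6 and Raji carried both, where 4.94%, 3.21% and 6.52% of all genes did, and in REH the median overlap of the peaks was 4285 bp. The marks were measured in separate bulk libraries, in which fewer cells with a mark and less of it per cell cannot be told apart, nor can both marks on 1 allele from a mixture. The window of FOXA3 holds the start of SYMPK.

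The silent members were the larger part. No H3K4me2 or H3K4me3 peak lay at 67 of 123 members in any of 36 libraries, or 54.5% against 32.3% of all genes. Of these, 39 had H3K27me3 in at least 1 library, a share close to that over all genes, where it was 3879 of 6467. The Raji library that goes against its label is counted there. The other 28 members had no peak of any mark in 54 libraries, or 22.8% of members against 12.9% of all genes. The first 6 of the 28 by name are FOXA1, FOXA2, FOXB2, FOXD3, FOXD4L1 and FOXD4L3. FOXA1 and FOXA2 are pioneer factors of gut and liver. The FOXD4L genes are near-identical copies, so reads could have been lost to multiple mapping there, which was not tested. Other silent members were NKX2-1 of lung and thyroid, SOX10 of the neural crest and SIX6 of the eye. Peaks mark the regions that passed the caller's threshold, so no peak does not show that a mark is absent.

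Signal was then compared between untreated lines with limma, on the log2 total signal of regions called in all 6 libraries of a comparison. For each member the leading region is given. Between Raji and REH, H3K4me2 regions of 11 of 24 members passed (2 higher and 9 lower in Raji) against a background of 46.8% of all regions (23.8% higher and 23% lower), and H3K4me3 regions of 12 of 19 (4 higher and 8 lower) against 51.3% (23.8% higher and 27.5% lower). The median log2 change was -0.19 over the members for both marks, against 0.00 and -0.02 over all regions. In 9 of 11 and 11 of 12 of the called members each library's own peak lay within 1 kb of a start. At FOXH1 and SOX18 the region reached the window only in part of the libraries.

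DLX2 had the largest H3K4me2 difference, at 0.76, 0.81 and 0.64 multiples of the median region in Raji against 5.99, 6.33 and 6.61 in REH (log2 change -3.10, SE 0.12, adjusted p = 7.71e-10). FOXO6 followed at 0.55, 0.74 and 0.63 against 3.89, 4.31 and 4.39 (log2 change -2.72, SE 0.13, adjusted p = 4.94e-09). LHX4 was at 0.30, 0.50 and 0.44 against 2.44, 2.57 and 2.80 (log2 change -2.67, SE 0.17, adjusted p = 6.3e-08). These 3 are members under H3K27me3, and their groups did not overlap. The called length of the region differed too, with means of 1763 bp in Raji and 8727 bp in REH at DLX2, 1927 and 8033 bp at FOXO6 and 2123 and 3853 bp at LHX4. Over 15 alternatives the log2 change ranged from -3.36 to -1.14 at DLX2, from -2.97 to -1.03 at FOXO6 and from -2.93 to -1.99 at LHX4, past the threshold in each, and with the mean signal per base LHX4 had the largest change of the 3. In Raji the FOXO6 peaks lay at a start other than its 5′ end. FOXO1 went the other way, with H3K4me2 higher in Raji (log2 change 0.65, SE 0.11, adjusted p = 0.000379).

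For H3K4me3, SIX5 had the largest difference, at 0.05, 0.08 and 0.12 multiples of the median region in Raji against 0.84, 0.89 and 0.96 in REH (log2 change -3.50, SE 0.26, adjusted p = 4.89e-06). SIX5 lies in the myotonic dystrophy locus, and its window holds the starts of DM1-AS and of an unnamed gene. SOX4 came next and IRX5, an Iroquois factor of heart and bone, followed at 0.89, 0.90 and 0.86 against 2.91, 2.90 and 2.78 (log2 change -1.69, SE 0.07, adjusted p = 2.06e-07). FOXK1, a repressor of autophagy genes, was higher in Raji (log2 change 0.58, SE 0.12, adjusted p = 0.00249).

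**Figure D4:**
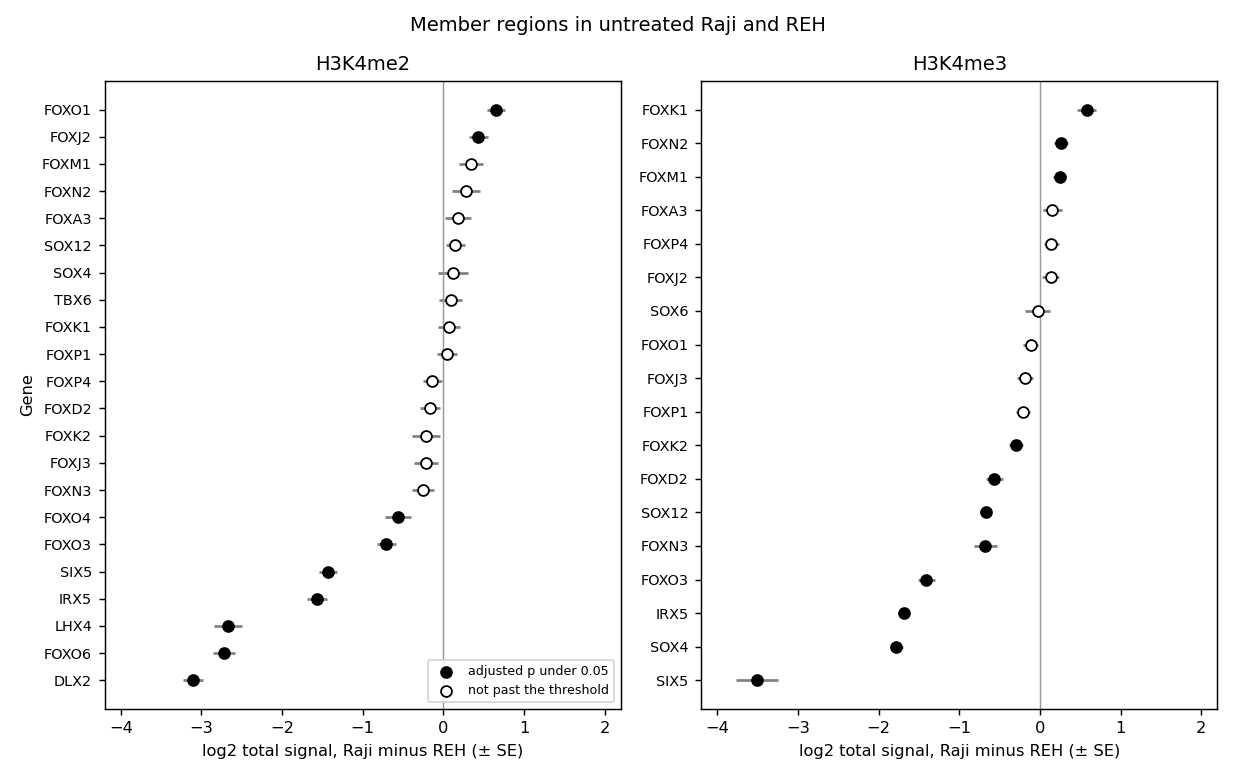
Log2 change of total signal, Raji minus REH, ± SE in untreated libraries (3 against 3) for members whose own peak lay within 1 kb of a start in all 6 libraries, 22 for H3K4me2 and 18 for H3K4me3, filled where the adjusted p is under 0.05. DLX2, FOXO6 and LHX4 lie farthest to the left for H3K4me2 and SIX5 and SOX4 for H3K4me3.

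The comparisons with NALM6 gave fewer calls. Between NALM6 and REH, 5 of 23 members passed for H3K4me2 (background 11.4% of all regions) and 3 of 18 for H3K4me3 (7.15%). Between Raji and NALM6 they were 5 of 18 (18.9%) and 3 of 16 (20.2%). FOXO3, a stress response relative of FOXO1, was lower in NALM6 than in REH for H3K4me3, at 1.08, 1.59 and 1.62 against 3.63, 3.77 and 4.30 multiples (log2 change -1.47, SE 0.19, adjusted p = 0.00725). That call was lost in 5 of 16 alternatives, with changes from -2.82 to -0.39 and an adjusted p of up to 0.673, among them leaving out REH replicate 1 (adjusted p = 0.0502) or REH replicate 3 (adjusted p = 0.0568), each of which left 0 members called for this mark. IRX5 was lower in Raji than in NALM6 for H3K4me3 (log2 change -1.88, SE 0.16, adjusted p = 0.000429), as was SOX12 (log2 change -1.73, SE 0.21, adjusted p = 0.00173). FOXL1 was higher in NALM6 than in REH for H3K4me2 (log2 change 1.59, SE 0.24, adjusted p = 0.00723). Without replicate 1 of both lines, since that of NALM6 has another scaling, 15 of 26 members passed for H3K4me2 (2405 of 8075 regions) and 8 of 23 for H3K4me3 (2837 of 7033) between NALM6 and REH. Between Raji and NALM6 they were 7 of 21 (1860 of 6675 regions) and 11 of 20 (5216 of 8557). For H3K27me3, 0 of 2 members passed between Raji and NALM6 (21.9% of 146 regions were called). Between NALM6 and REH 4 of 7 passed, in a fit of 385 regions of which 62.3% were called. FOXO6 was higher in NALM6 (log2 change 2.65, SE 0.32, adjusted p = 0.000375). DLX3 was lower (log2 change -1.49, SE 0.42, adjusted p = 0.017), as was the region of DLX1 and DLX2 (log2 change -1.04, SE 0.30, adjusted p = 0.0183). Without NALM6 replicate 1 the changes were -0.64 at DLX3 (adjusted p = 0.0534) and 0.0068 at DLX1 and DLX2 (adjusted p = 0.986), and both calls were also lost without NALM6 replicate 3. DLX3 lost its call without REH replicate 3 and DLX1 without NALM6 replicate 2. Between Raji and REH 3 of 4 passed, where 65.5% of regions were called. Besides TBX21, DLX3 was lower in Raji (log2 change -1.79, SE 0.21, adjusted p = 0.000124; -1.03 without Raji replicate 1), and IRX4 was higher (log2 change 0.67, SE 0.19, adjusted p = 0.0114). IRX4 had its own peak in the window in 2 of the 6 libraries, and its direction turned with the maximum or the mean signal.

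With bryostatin no member gained a peak in 3 of 3 treated libraries with 0 of 3 untreated, or lost one the opposite way, for any mark in any line. Over all genes the largest such count was 78 gains of H3K4me2 in NALM6, or 0.389%. For H3K27me3 in Raji and NALM6 this rule could show little, since it needs peaks in libraries that held few. There 3 of 3 libraries had a peak at 3 and 3 members untreated and at 4 and 2 treated. The mean number of members with H3K4me3 went from 32.7 ± 6.66 to 29.7 ± 3.79 in REH, from 23.7 ± 5.13 to 22 ± 6 in NALM6 and from 23.7 ± 1.15 to 22.7 ± 1.53 in Raji (SD, n = 3), which is within the spread of the libraries. H3K4me3 at FOXO1 and FOXP1 overlapped between treated and untreated libraries in each line. The H3K27me3 calls did move, from 23 members to 10 in Raji, from 20 to 33 in NALM6 and from 29 to 34 in REH. The called share of all genes moved the same way, from 16.1% to 4.19%, from 9.64% to 15.8% and from 13.2% to 14.9%. The Raji and NALM6 groups hold the libraries with few H3K27me3 peaks named above. With 1 library left out at a time, the mean number of members with a peak changed by -22.7 to -2.5 in Raji. In NALM6 it changed by 0.667 to 19.3 and in REH by -0.833 to 6.67. The cause of these shifts was not tested. Peaks lay at 3, 43 and 41 members in untreated Raji and at 9, 5 and 44 with bryostatin. In NALM6 they lay at 4, 32 and 20 against 4, 36 and 40, and in REH at 36, 29 and 21 against 25, 34 and 36. The groups overlapped in each line.

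IRX3 was the exception in signal. This Iroquois factor (chr16:54283304-54286787, minus strand), known for roles in heart conduction and fat tissue, carried H3K4me3 in REH alone. Its region was 2.38, 2.39 and 2.49 multiples of the median region in the untreated libraries and 3.48, 3.60 and 3.18 with bryostatin, with no overlap. The log2 change was 0.50 (SE 0.07, adjusted p = 0.00211), a fold of 1.41, and IRX3 is the sole member called of 28, against a background of 1.67% of all regions. In 9 of 28 the groups did not overlap, where 17.6% of all regions had no overlap. The called length hardly moved, at 3997 bp untreated and 4180 bp treated on average. The window of IRX3 also holds the start of an unnamed gene. H3K4me2 at IRX3 was 3.34, 3.40 and 3.99 untreated and 3.25, 2.96 and 3.90 treated, which overlap. With the maximum signal the adjusted p was 0.125 and with the mean signal per base 0.348, at log2 changes of 0.43 and 0.51.

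No member region was called for H3K4me2 in any line, where 24 were tested in Raji, 22 in NALM6 and 42 in REH. At an unadjusted p under 0.05 there were 0, 0 and 4 members, where 6.72%, 1.36% and 9.88% of all regions were. In REH 36 of 42 members had a lower H3K4me2 signal with the drug and 6 a higher one. The median log2 change was -0.09 against -0.02 over all regions. The number higher was 14 with the mean signal per base and 4 to 11 with 1 library left out. The share of all regions that were lower was not counted, and members are not replicates, so no effect on the members is read from these signs. The background of called regions was 0% in Raji and NALM6 and 1.45% in REH. For H3K4me3 none of 21 was called in Raji and none of 16 in NALM6, and for H3K27me3 none of 5, 5 and 30 in Raji, NALM6 and REH. At an unadjusted p under 0.05 there were 1, 0, 1, 0 and 0 in that order, against 5.65%, 0.182%, 3.62%, 0.775% and 2.59% of all regions, while adjusted calls made up 0.155% of regions for H3K4me3 in Raji and 0% in the other 4 fits. In simulated data of the NALM6 libraries 1% and 2% of changes of 1 on the log2 scale were recovered for the 2 H3K4 marks, so a change of that size there was not detectable, while in REH 100% were for both. For H3K27me3 45.6%, 0% and 20% were recovered in Raji, NALM6 and REH. Same-numbered replicates deviated together in REH and Raji for H3K4me3. With the replicate block, SIX5 in REH also passed (log2 change -0.39, SE 0.09, adjusted p = 0.043), which makes 2 members, and SOX12 in Raji (log2 change -0.45, SE 0.10, adjusted p = 0.0486), which makes 1. Calls over all regions rose as well, to 202 of 7238 in REH (121 without the block) and 132 of 9040 in Raji (14 without it). An interaction term compared the response of each pair of lines for both H3K4 marks. No member was called in any of these 6 fits, with 3 at an unadjusted p under 0.05, all for H3K4me3 between Raji and REH, where 4.45% of all regions were at that level and 0.0776% were called. For H3K4me2 between these lines 6.59% and 0.0275% were, and in the fits with NALM6 1% to 2.75% and 0%.

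Relatives whose symbols fall outside the naming rule were counted in the same way. Of 8 such genes, TBXT, EOMES, TBR1, MGA, ISL1, ISL2, LMX1A and LMX1B, 2 were called for H3K4me3 in untreated Raji, 2 in NALM6 and 1 in REH, or 25%, 25% and 12.5%, beside 18.7%, 20.3% and 25.2% of the members and 52.9%, 51.4% and 49.4% of all genes. MGA, a partner of MAX, had H3K4me3 in 6 of 6 Raji libraries and ISL1, of motor neurons and heart, had H3K27me3 in 6 of 6 REH libraries. The 39 HOX cluster genes, another set of developmental factors, were called for H3K27me3 at 41.03%, 38.5% and 33.3% in Raji, NALM6 and REH, above the members, and for H3K4me3 at 17.9%, 0% and 17.9%.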

How the data were processed

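Cut&Tag libraries of 3 marks were made from 3 cell lines with and without bryostatin. Reads were trimmed with TrimGalore by the authors, mapped with Bowtie2 (genome hg38), and SEACR stringent peaks were deposited for every library. Versions are not given in the sources used here. Each deposited peak holds its total and maximum signal, which is coverage that the authors normalized by RPKM. NALM6 replicate 1 has another, unstated scaling. IgG libraries were not used here.

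Peaks of chromosomes 1 to 22, X and Y were set against the starts of GENCODE 44. Peaks of the libraries compared were merged at 1 bp overlap, and the log2 total signal of regions called in all of them was centred on each library's median region and fitted in R 4.3.3 by limma 3.58.1, whose eBayes step used a trend. P-values were adjusted over all regions by Benjamini-Hochberg, with a threshold of 0.05. Figures were drawn with matplotlib 3.10.9. The fit was tested on simulated data with known changes. It recovered 99% of changes of 1 on the log2 scale for both H3K4 marks between Raji and REH.

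The members and gene lists were chosen with earlier results of these data known. Genes were named by list, by largest change past the threshold with separated groups (up to 3 a comparison), by line-specific H3K4me3, by the number of H3K27me3 libraries, and by name among members with no peak. Other genes in the text were chosen after their values were seen. The labels number replicates in both treatments, and libraries with the same number varied alike in each pair for H3K4me3 in Raji (correlations from 0.482 to 0.540), NALM6 (0.634 to 0.676) and REH (0.179 to 0.311) and for H3K4me2 in NALM6 and REH and H3K27me3 in NALM6. A replicate block was therefore fitted as an alternative. In NALM6 replicates 2 and 3 also varied alike across unlike numbers, and unlike pairs with replicate 1 went the opposite way. The unlike pairs of 2 and 3 had correlations of 0.565 and 0.507 for H3K4me3, 0.516 and 0.444 for H3K27me3 and 0.354 and 0.406 for H3K4me2. There pairing by number cannot be told apart from replicate 1 standing apart. Alternatives were other windows, starts, overlaps, peak numbers, signal measures, centrings and filters, and leaving out each library. One member is not reported here by name or in the map of calls.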

Additional observations from a re-analysis of the deposited data

How the results depend on the processing

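Of 351 alternatives to the counts reported, 294 were taken as the same. Of 207 that left out 1 library, or replicate 1 of both groups, 176 were. A count was the same within 1.5 times, or at 0 where the reported count was 0. A bryostatin difference in the mean number of members was the same within the larger SD of the groups. Its sign could thus turn, as for H3K4me3 in REH (-5.83 to 0.667), so these totals do not measure stability of direction. In the bryostatin fits, the replicate block gave 1 member for H3K4me3 in Raji (SOX12) and 2 in REH (IRX3 and SIX5), and changed no other bryostatin call. It called 132 of 9040 regions in Raji (14 without it) and 202 of 7238 in REH (121 without it). Quantile normalization also gave 2 in REH, and the maximum and the mean signal gave 0. In these 3 settings 169, 20 and 0 of 7238 regions were called. The cause of each change was not tested. Between lines, same-numbered libraries share only a number. There the block gave 1 for NALM6 against REH for H3K4me3 and 1 for Raji against NALM6 for H3K27me3, from 3 and 0.

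The H3K27me3 counts depended on the number of libraries required. With 3 of 3 they were 3 in Raji and 3 in NALM6, with 1 or more 61 and 33, and with an equal number of peaks in each library 6 and 5. Over all genes 278 and 395 of 20033 had peaks in 3 of 3. No peak lay at 62 of 123 members and 6344 genes in untreated Raji, and at 90 and 16962 in NALM6. With 1 or more, H3K27me3 in Raji was thus less common at members than at all genes. The library that goes against its label is counted in this. No share over all genes is given here for the other counts. Replicate 3 alone, chosen after seeing the data, gave 41 in Raji. H3K4me2 in Raji was 17 with the stronger peaks alone (those above the median total signal). Members with both marks in Raji, NALM6 and REH were 0, 0 and 0 with the stronger peaks alone, 1, 0 and 3 with equal peak numbers and with 3 of 3, 24, 8 and 10 with 1 or more of 3, and 6, 6 and 12 with H3K4me2. A window of 2 kb gave 5 in Raji and 4 in NALM6, and one of 500 bp gave 1 in NALM6.

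Counts of called members in the line fits of this section stand without the share of all regions called in the same setting. The regions tested or called can change with the setting, so no such count is read as a result about the members. For NALM6 against REH, members called for H3K4me2 were 3 with the maximum signal, 0 with no centring, 10 with regions in at least 3 of 6 libraries and 15 without replicate 1. For H3K4me3 they were 0, 0, 8 and 8, and 0 with the mean signal. For Raji against NALM6, H3K4me2 gave 2 with the mean signal, 2 with the stronger regions alone and 0 with no centring, and H3K4me3 gave 0 with no centring and 11 without replicate 1. For Raji against REH, H3K4me3 gave 4 with the maximum signal, 6 with the mean signal and 6 with no centring. Values with no centring are not comparable in NALM6, where replicate 1 has another scaling. H3K27me3 gave 17 for Raji against REH with regions in at least 3 of 6 libraries and 1 with an own peak in every library. For NALM6 against REH it gave 0 with no centring, 2 with quantile normalization, 23, 13 without replicate 1 and 2 with an own peak. The own-peak rule was chosen after seeing the data. For Raji against NALM6 it gave 1 with the maximum signal, 1 with quantile normalization, 1 with a 2 kb window, 19 and 13. In NALM6 against REH, H3K4me3 turned to -0.19 at SOX7 and -0.30 at SOX12 with no centring, and H3K27me3 at DLX1 to 0.0068 without NALM6 replicate 1 (lowest value with another library left out -1.14). IRX4 between Raji and REH turned to -0.49 with the maximum and -0.063 with the mean signal.

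Leaving out 1 library at a time gave 3 to 23 members with H3K27me3 in Raji, with 3 without replicate 2 or without replicate 3. It gave 3 to 20 in NALM6 and 20 to 28 in REH. For both marks it gave 1 to 3 in Raji, 0 to 2 in NALM6 and 3 to 5 in REH. H3K4me3 counts ranged from 23 to 23, 18 to 25 and 27 to 31, and H3K4me2 counts from 24 to 26, 22 to 25 and 42 to 44. The bryostatin fit of H3K4me3 in REH gave 1 to 2. In the comparisons with NALM6 the ranges that follow include the fit without replicate 1 of both lines. Line fits gave 10 to 12 and 9 to 14 for Raji against REH, 4 to 15 and 0 to 10 for NALM6 against REH, and 4 to 7 and 3 to 11 for Raji against NALM6, for H3K4me2 and H3K4me3. For H3K27me3 they gave 2 to 10, 1 to 13 and 0 to 13.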
